A study of Mus musculus with 6 samples.

Results

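The cell proliferation genes are 50 mouse genes that dividing cells use to copy their DNA and to separate it, taken by name and not by any measured value. All 50 were found among the 55455 named rows of a gene count matrix of 61880 rows, and each was measured in 2 ways, as the row that carries its symbol and as the sum of all rows of the same assembled locus. The matrix was made from bulk RNA-Seq of mammary epithelial cells isolated from the inguinal glands of female mice at puberty (6 to 8 weeks of age). The 3 *fat-1* samples came from transgenic FVB/NJ mice that carry a roundworm n-3 desaturase, an enzyme which makes n-3 from n-6 polyunsaturated fatty acids throughout the body, and the 3 WT samples came from mice without it. Both genotypes were kept for life on the same safflower oil diet, with 10% of its weight and 22% of its energy as fat, so that the transgene was the labelled difference. Each sample pooled the cells of several mice, the cells were released by a long enzymatic digestion without sorting, and the sources do not say what drives the transgene, whose own RNA was not analysed here.

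Proliferation genes are switched on in order. Transcription factors of the E2F family turn on the genes for replication at the border of G1 and S phase, the MCM helicase is loaded on DNA and fired, and later the MuvB complex with MYBL2 and FOXM1 turns on the cyclins, kinases and spindle proteins of G2 phase and mitosis. In the pubertal mammary gland, dividing cells are found mostly in the terminal end buds of the growing ducts, and lymphocytes, stromal cells and macrophages in or near the gland can divide as well. In bulk RNA, fewer dividing cells and less RNA per dividing cell cannot be told apart.

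The promoters of many of these genes carry short motifs that belong to this order, and 7 of them are shown as picked examples. Each is the stretch of 160 bases just before the transcription start, read 5′ to 3′ on the strand of the gene from RefSeq promoters of GRCm38.p6. Capitals mark matches on either strand to the CHR element (TTTGAA), the CCAAT box (CCAAT) and the E2F motif (TTTCCCGC, TTTGGCGC, TTTCGCGC or TTTGCCGC), and overlapping matches appear as a single run of capitals. The first 4 belong to the proliferation marker *Mki67* (chr7:135716380-135716539, minus strand), the DNA topoisomerase *Top2a* (chr11:99024190-99024349, minus strand), the mitotic kinase *Cdk1* (chr10:69352913-69353072, minus strand) and the anaphase activator *Cdc20* (chr4:118437344-118437503, minus strand).
Mki67: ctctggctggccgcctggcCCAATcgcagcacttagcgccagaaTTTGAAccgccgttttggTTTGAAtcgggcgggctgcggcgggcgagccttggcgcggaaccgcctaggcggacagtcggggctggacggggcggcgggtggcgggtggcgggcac
Top2a: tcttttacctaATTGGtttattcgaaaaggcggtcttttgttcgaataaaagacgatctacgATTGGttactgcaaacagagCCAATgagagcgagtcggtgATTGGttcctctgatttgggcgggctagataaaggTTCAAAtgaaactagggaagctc
Cdk1: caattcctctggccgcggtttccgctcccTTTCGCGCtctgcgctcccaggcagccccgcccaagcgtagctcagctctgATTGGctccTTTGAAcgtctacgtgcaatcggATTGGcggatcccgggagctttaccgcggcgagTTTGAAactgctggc
Cdc20: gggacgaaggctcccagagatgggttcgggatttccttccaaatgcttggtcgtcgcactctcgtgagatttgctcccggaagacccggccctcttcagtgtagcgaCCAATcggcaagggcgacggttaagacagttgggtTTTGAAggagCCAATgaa
The other 3 belong to the MCM helicase subunits *Mcm5* (chr8:75109349-75109508, plus strand) and *Mcm6* (chr1:128359706-128359865, minus strand) and to the chromatin remodeller *Hells* (chr19:38930830-38930989, plus strand).
Mcm5: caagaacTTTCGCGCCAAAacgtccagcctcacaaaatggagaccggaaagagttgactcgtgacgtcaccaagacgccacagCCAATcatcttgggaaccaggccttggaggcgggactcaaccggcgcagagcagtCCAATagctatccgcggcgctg
Mcm6: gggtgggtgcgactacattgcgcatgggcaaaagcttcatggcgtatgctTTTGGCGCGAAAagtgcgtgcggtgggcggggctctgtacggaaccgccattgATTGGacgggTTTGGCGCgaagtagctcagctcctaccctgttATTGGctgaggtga
Hells: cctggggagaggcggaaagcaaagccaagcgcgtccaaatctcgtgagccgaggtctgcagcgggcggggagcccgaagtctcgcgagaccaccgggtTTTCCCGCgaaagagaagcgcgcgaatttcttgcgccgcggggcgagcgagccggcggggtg

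Over the whole window from 250 bases before to 50 bases after the start, a promoter was found for 40 of the 50 genes. The CHR element was present in 14 of 20 genes of the G2/M and mitosis roles (70%), against 3 of 20 genes of the G1/S and replication roles (15%) and 20.2% of the 27025 genes with a promoter. The E2F motif had the opposite distribution, with 1 of 20 mitotic genes (5%, *Cdk1*) and 10 of 20 replication genes (50%), against 2.60% of all genes. CCAAT boxes were found in 85% of the mitotic genes, 60% of the replication genes and 41.1% of all genes. A match shows only that these letters are in the window, and no binding was measured.

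**Figure D1:**
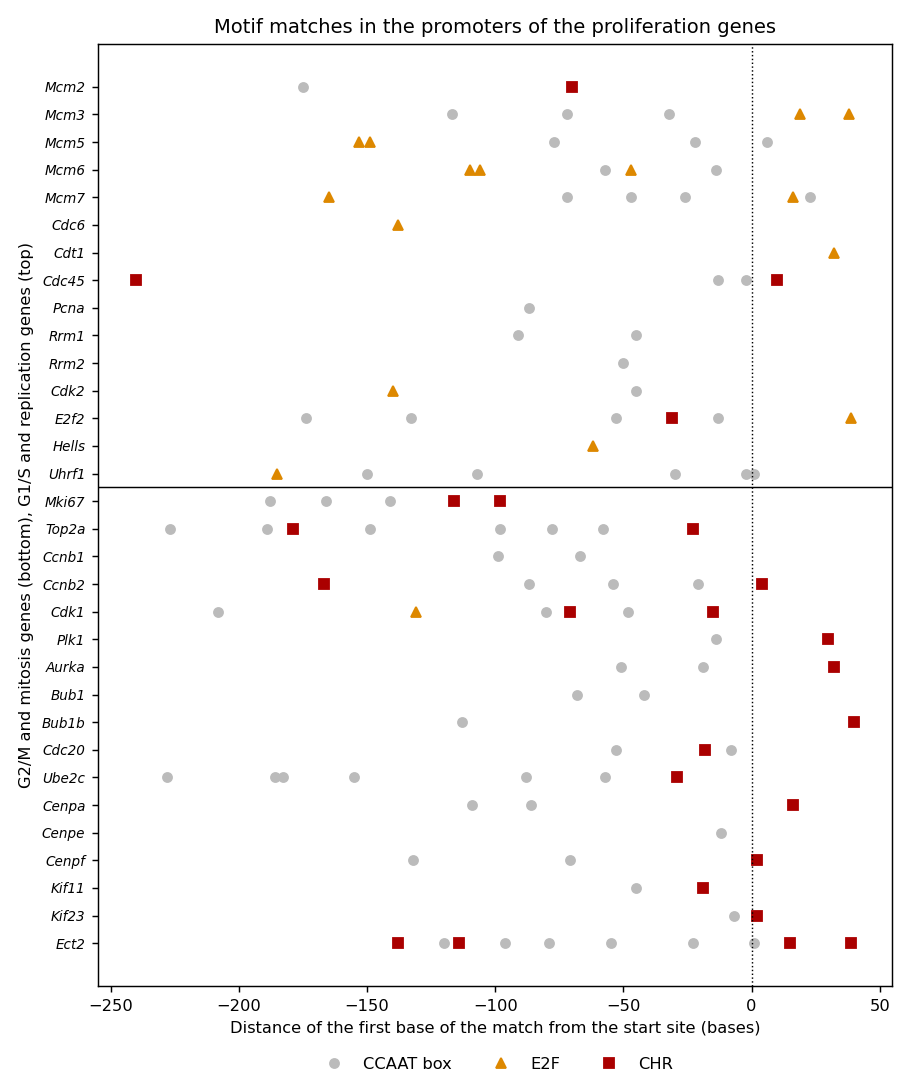
Matches to the CHR element, the E2F motif and the CCAAT box (points) against the distance from the transcription start in bases, 1 row per gene with a match, its alternative starts together, with mitotic genes at the bottom and replication genes at the top. The CHR element is present in 14 of 20 mitotic genes and the E2F motif in 10 of 20 replication genes.

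Total counts ran from 204539059 to 232148824 per sample, and levels are given as CPM, the count relative to a library size scaled by TMM. The samples differed in their cell types within each genotype. Both samples numbered 1 had the highest summed CPM of luminal and basal epithelial markers, and *fat-1* replicate 2 and WT replicate 3 had the highest summed CPM of B cell and T cell markers. The luminal keratins and other luminal markers summed, by the rows with their symbols, to 2686, 745 and 1300 CPM in *fat-1* replicates 1 to 3 and to 2213, 1266 and 783 CPM in WT replicates 1 to 3. The p-values measure the spread between these pools, and the labels do not say whether mice or preparation days were shared.

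For 38 of the 50 genes the row with the symbol held at least 80% of the counts of its locus, and the locus sum was taken as the measure of the gene. For the other 12 it held less. The row held 0.190% of the locus for *Cdc6*, which loads the helicase and shared a locus with *Wipf2*, and 0.435% for the centriole kinase *Plk4*, which shared one with *Hspa4l*. It held 0.750% for the survival and cytokinesis gene *Birc5* (with *Syngr2*, *Afmid* and *Gm20708*), 1.11% for the ubiquitin-conjugating enzyme *Ube2c* (with *Dnttip1*) and 1.56% for cyclin *Ccnb2* (with *Rnf111*). Locus sums of these 5 genes are mostly counts of other rows and may not measure the genes themselves. The share was 8.14% for thymidine kinase *Tk1*, 14.6% for the helicase component *Cdc45*, 36.6% for the centromere histone *Cenpa*, 48.9% for *Mcm7* (with *Mir106b*, *Mir25* and *Mir93*), 52.2% for the sliding clamp *Pcna* (with *Tmem230*), 74.3% for the kinase *Cdk2* and 76.1% for *Foxm1* (with *Nrip2*, *Tex52* and *Gm44596*). Except for *Ccnb2* and *Foxm1*, most of the remaining counts of these 12 loci lay in rows without a symbol. Such rows held 50.7% of the *Mcm7* locus and 44.5% of the *Pcna* locus, and rows of other symbols held 0.450% and 3.33%. Which gene the rows without a symbol measure was not tested. *Top2a* and *Rrm1* also shared a locus with another symbol but kept over 80% of its counts.

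No proliferation gene passed the test between *fat-1* and WT mice. With edgeR's quasi-likelihood test on locus sums, 0 of 24061 loci (0%) passed an adjusted p of 0.05, and 0 of the 50 genes did, all 50 having passed the filter on low counts. At an unadjusted p of 0.05 there were 274 loci (1.14%) and 0 of the 50 genes. Of the 50 genes, 29 had higher and 21 had lower values in *fat-1* mice, with a median log2 fold change of 0.02, and the median over all loci was 0.00. This balance rested on single samples, since 11 genes were higher without WT replicate 1, 16 without *fat-1* replicate 3, 38 without *fat-1* replicate 1 and 41 without WT replicate 3. DESeq2 called 8 loci and no proliferation gene.

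Among the 38 genes measured by their own rows, 22 had higher and 16 lower values in *fat-1* mice. Their log2 fold changes ran from −0.27 (SE 0.31) for the transcription factor *E2f1* to 0.25 (SE 0.37) for the spindle motor *Kif11*. The standard errors ran from 0.133 for *Mcm6* to 0.638 for *Cenpf*. In all 38 genes the values of the genotypes overlapped, and over all tested loci 4.15% did not overlap. For *Mki67*, the interval of 2 standard errors on either side of the fold change reached from −0.71 to 1.04 on the log2 scale. Differences within this interval are compatible with the 3 pools per genotype. The smallest difference that the test could have called was not computed. For *Mcm2* the same interval was narrower, from −0.25 to 0.30.

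**Figure D2:**
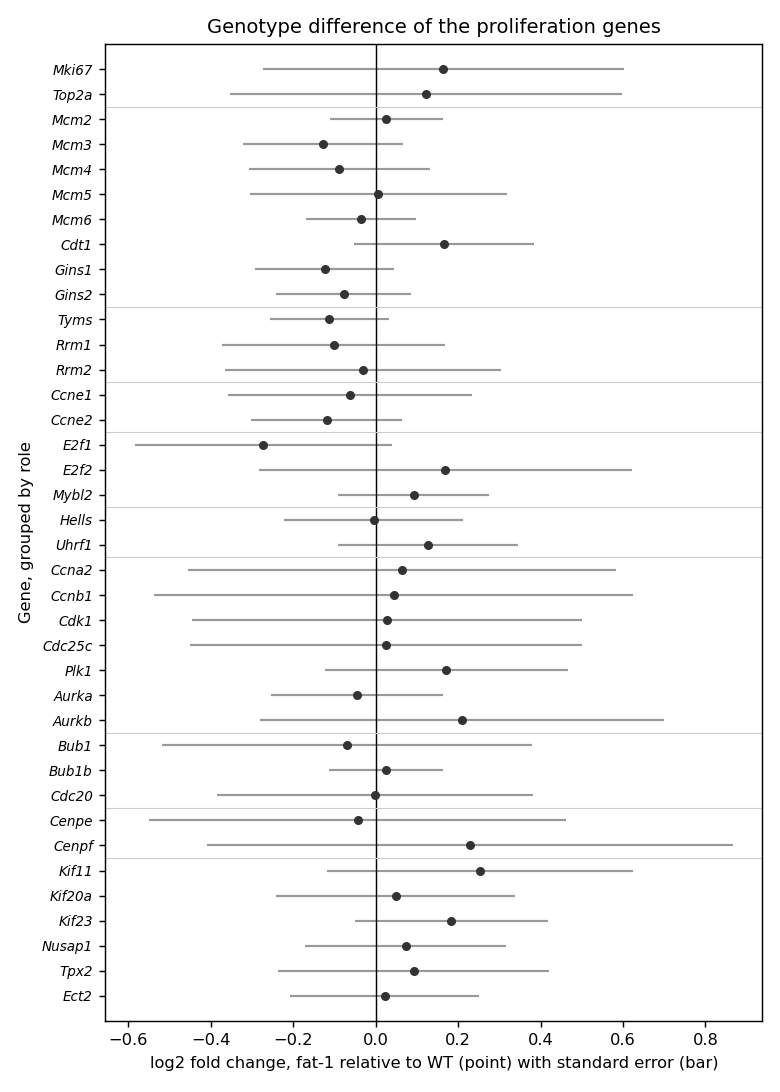
Log2 fold change in *fat-1* relative to WT mice (points, x axis) with its standard error (bars) for the 38 proliferation genes with their own measure, grouped by role on the y axis. The points lie near 0, and the bars are longest for mitotic genes such as *Cenpf* (0.23, SE 0.64).

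The proliferation markers varied more within each genotype than between them. *Mki67*, which coats mitotic chromosomes and is used to count dividing cells (chromosome 7, 135689784 to 135716361, minus strand, GRCm38), had 9.68, 21.9 and 24.8 CPM in *fat-1* replicates 1 to 3 and 9.29, 19.9 and 21.1 CPM in WT replicates 1 to 3. The sample numbered 1 was the lowest of each genotype. The means were 18.8 ± 8.04 CPM in *fat-1* and 16.8 ± 6.52 CPM in WT mice (SD, n = 3), with a log2 fold change of 0.16 (SE 0.44). *Top2a*, which untangles DNA before mitosis (chromosome 11, 98992943 to 99024189, minus strand), had 7.59, 18.6 and 20.9 CPM in *fat-1* and 7.83, 14.6 and 20.8 CPM in WT samples. It had the same low samples, and its log2 fold change was 0.12 (SE 0.48).

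**Figure D3:**
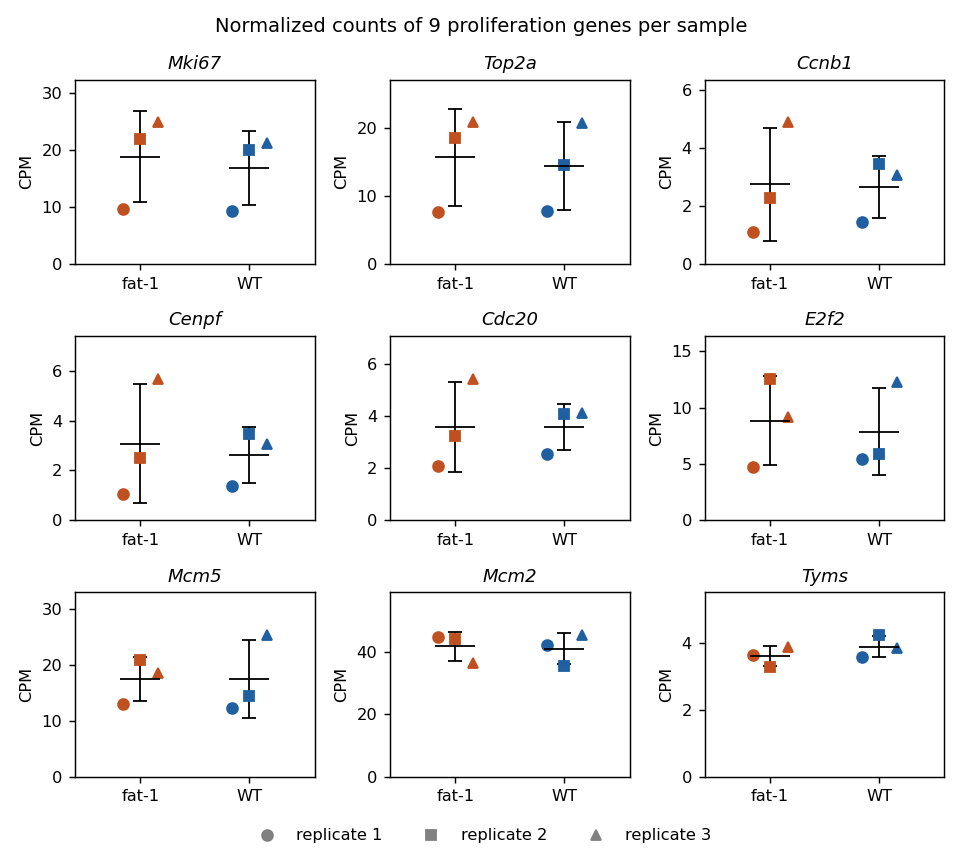
Normalized counts (CPM, y axis from 0) of 9 proliferation genes in each sample, with a point shape for each replicate, a horizontal line at the genotype mean and bars of 1 SD (n = 3). *Mki67*, *Top2a*, *Ccnb1*, *Cenpf* and *Cdc20* are lowest in the sample numbered 1 of each genotype, and *Mcm2* is not.

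Of the 8 replication licensing and fork genes with their own measure, 3 had higher and 5 lower values in *fat-1* mice, and none passed the test. *Mcm2*, a subunit of the MCM helicase (chromosome 6, 88883474 to 88898780, minus strand), had 45.0, 44.3 and 36.5 CPM in *fat-1* and 42.3, 35.7 and 45.5 CPM in WT samples. Its highest sample was 1.28-fold above its lowest, and neither sample numbered 1 was low. *Mcm5* (chromosome 8, 75109569 to 75128439, plus strand) had 13.1, 20.8 and 18.6 CPM in *fat-1* and 12.4, 14.5 and 25.4 CPM in WT samples. WT replicate 3 was the highest sample in 7 of the 8 genes. *Cdt1*, which loads the helicase together with CDC6, had the highest fold change of the role (0.17, SE 0.22), with 31.8, 41.1 and 35.3 CPM in *fat-1* and 27.5, 26.1 and 42.8 CPM in WT samples. *Mcm6* had 44.5, 51.9 and 49.4 CPM in *fat-1* and 43.8, 47.8 and 58 CPM in WT samples (−0.04, SE 0.13), and *Mcm4* had 22.5, 33.4 and 29.8 CPM in *fat-1* and 25.2, 27.2 and 38.6 CPM in WT samples (−0.09, SE 0.22). In both genes WT replicate 3 was above the other samples. *Mcm3* had −0.13 (SE 0.19), and *Gins1*, of the GINS complex that activates the helicase, had −0.12 (SE 0.17). *Gins2* shares 67.3% of its exonic bases with genes on the other strand, and whether strand was used in counting is not stated, so its value is uncertain.

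*Mcm7* was the 1 proliferation gene that reached the unadjusted threshold in either unit, and it did so by its row alone. The row had 14.8, 14.3 and 23.3 CPM in *fat-1* and 32.2, 25 and 49.6 CPM in WT samples, which did not overlap. The log2 fold change of the row was −1.03 (SE 0.33), and over 30683 rows edgeR's quasi-likelihood test gave it an unadjusted p of 0.0209 and, after adjustment, 1.00. In that test 0 rows (0%) passed the adjusted threshold and 678 rows (2.21%) the unadjusted one, and *Mcm7* was the 1 row of the 50 that did. When the rows of the locus were added, the values were 53.6, 51.6 and 48.9 CPM in *fat-1* and 53.1, 54.5 and 59.3 CPM in WT samples, and the fold change was −0.12 (SE 0.09). The share of the locus held by the row ran from 27.5% to 83.9% over the samples.

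None of the nucleotide synthesis genes passed the test. *Tyms*, which makes thymidylate, had 3.64, 3.28 and 3.86 CPM in *fat-1* and 3.58, 4.23 and 3.84 CPM in WT samples, with a log2 fold change of −0.11 (SE 0.14). *Rrm1* and *Rrm2*, the subunits of ribonucleotide reductase, had −0.10 (SE 0.27) and −0.03 (SE 0.33). *Rrm2* had 2.27, 4.35 and 3.65 CPM in *fat-1* and 2.41, 3.32 and 4.76 CPM in WT samples, and its lowest values were again in both samples numbered 1. The *Tk1* locus did not overlap between genotypes, with 19.3, 19.7 and 18.8 CPM in *fat-1* and 14.7, 15.3 and 18.3 CPM in WT samples (0.26, SE 0.12, edgeR's unadjusted p = 0.0717 and adjusted p = 1.00). This was the smallest p of the 50 genes, and its symbol row, with 8.14% of the locus, had −0.02 (SE 0.83).

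At the border of G1 and S phase, *Ccne1* and *Ccne2*, the cyclins that activate CDK2, had log2 fold changes of −0.06 (SE 0.30) and −0.12 (SE 0.18). *E2f1*, an activator of replication genes, had 3.53, 5.83 and 8.00 CPM in *fat-1* and 5.69, 8.15 and 7.12 CPM in WT samples. *E2f2*, a related activator (chromosome 4, 136172394 to 136196057, plus strand), had 4.73, 12.6 and 9.20 CPM in *fat-1* and 5.40, 5.89 and 12.3 CPM in WT samples, with a fold change of 0.17 (SE 0.45). *E2f2* was highest in *fat-1* replicate 2 and WT replicate 3, the samples with the highest B cell marker sums of their genotypes, and *E2f1* was not. *Mybl2*, the MYB factor of the MuvB complex, had 0.09 (SE 0.18). *Hells* had 0.00 (SE 0.22), and *Uhrf1*, which keeps DNA methylation through replication, had 0.13 (SE 0.22).

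The cyclins and kinases of G2 phase and mitosis were at low levels and had a wide spread. *Ccna2*, the cyclin of S and G2 phase, had 1.25, 3.47 and 5.09 CPM in *fat-1* and 1.93, 3.87 and 3.58 CPM in WT samples. *Ccnb1*, the mitotic cyclin (chromosome 13, 100778650 to 100786570, minus strand), had 1.09, 2.26 and 4.89 CPM in *fat-1* and 1.44, 3.46 and 3.08 CPM in WT samples. Its partner *Cdk1* had 0.929, 2.06 and 3.45 CPM in *fat-1* and 1.48, 2.30 and 2.54 CPM in WT samples. In these 3 genes *fat-1* replicate 3 was the highest and *fat-1* replicate 1 the lowest of all samples, a spread of 4.08-fold, 4.51-fold and 3.71-fold within 1 genotype, and the fold changes between genotypes were 0.06 (SE 0.52), 0.04 (SE 0.58) and 0.03 (SE 0.47). Of the 7 genes of this role with their own measure, *Aurkb*, a kinase of chromosome segregation, had the highest fold change (0.21, SE 0.49) and *Aurka*, a centrosome kinase, the lowest (−0.05, SE 0.21).

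Both samples numbered 1 were also the lowest in 2 of 3 spindle checkpoint genes, 2 of 2 centromere genes and 5 of 6 spindle and cytokinesis genes with their own measure. *Bub1*, a checkpoint kinase, had 0.777, 2.01 and 2.14 CPM in *fat-1* and 1.04, 1.96 and 2.18 CPM in WT samples (−0.07, SE 0.45). *Bub1b*, its pseudokinase relative, had a narrow range from 9.09 to 11.6 CPM (0.03, SE 0.14). *Cdc20* had 2.07, 3.24 and 5.46 CPM in *fat-1* and 2.55, 4.09 and 4.14 CPM in WT samples, with a fold change of 0.00 (SE 0.38). The kinetochore protein *Cenpf* had 1.03, 2.49 and 5.68 CPM in *fat-1* and 1.36, 3.44 and 3.06 CPM in WT samples, the widest range of the 38 genes (5.50-fold). *Cenpe*, a kinetochore motor, had −0.04 (SE 0.51). All 6 spindle and cytokinesis genes with their own measure had higher values in *fat-1* mice without passing the test, from 0.02 (SE 0.23) for *Ect2*, which starts cleavage of the cell, to 0.25 (SE 0.37) for *Kif11*. *Kif11* had 2.63, 5.41 and 6.14 CPM in *fat-1* and 2.72, 4.11 and 5.06 CPM in WT samples. *Tpx2*, which nucleates spindle microtubules, had 3.33, 5.86 and 7.63 CPM in *fat-1* and 3.98, 5.63 and 6.17 CPM in WT samples. All 6 were highest in *fat-1* replicate 3. The cytokinesis motor *Kif23* had 0.18 (SE 0.23) and *Nusap1*, a microtubule bundler, 0.07 (SE 0.24).

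For the genes with mixed loci, those whose symbol row held under 80% of the locus, the symbol rows showed part of the same pattern. In the loci of *Tk1*, *Cdc45*, *Cenpa* and *Cdk2* no other gene was named, and the other row had no symbol. The *Ccnb2* row had 0.666, 1.18 and 2.49 CPM in *fat-1* and 0.821, 1.11 and 2.44 CPM in WT samples (−0.01, SE 0.61), and the *Foxm1* row had 2.19, 4.24 and 4.92 CPM in *fat-1* and 2.78, 4.03 and 4.48 CPM in WT samples (0.01, SE 0.35). Both were lowest in the samples numbered 1. The *Cenpa* row had 10.8, 19.4 and 10.9 CPM in *fat-1* and 10.8, 12.0 and 15.7 CPM in WT samples (0.10, SE 0.30), with *fat-1* replicate 2 the highest. The *Birc5* row had 1.32, 1.22 and 1.29 CPM in *fat-1* and 1.53, 1.10 and 1.00 CPM in WT samples (0.08, SE 0.22), and its lowest value was in WT replicate 3. The *Pcna* row had 93.1, 56.1 and 40.2 CPM in *fat-1* and 79.8, 63.7 and 63.0 CPM in WT samples (−0.12, SE 0.32), highest in both samples numbered 1. Its locus sum ran from 116 to 134 CPM, a 1.15-fold range. The rows of *Cdc6*, *Ube2c* and *Plk4* stayed below 1 CPM in every sample, and the *Cdc45* row ran from 0.014 to 2.21 CPM within the WT samples. *Cdc45* had a log2 fold change of −1.66 (SE 1.51) by row and −0.15 (SE 0.16) by locus sum.

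**Figure D4:**
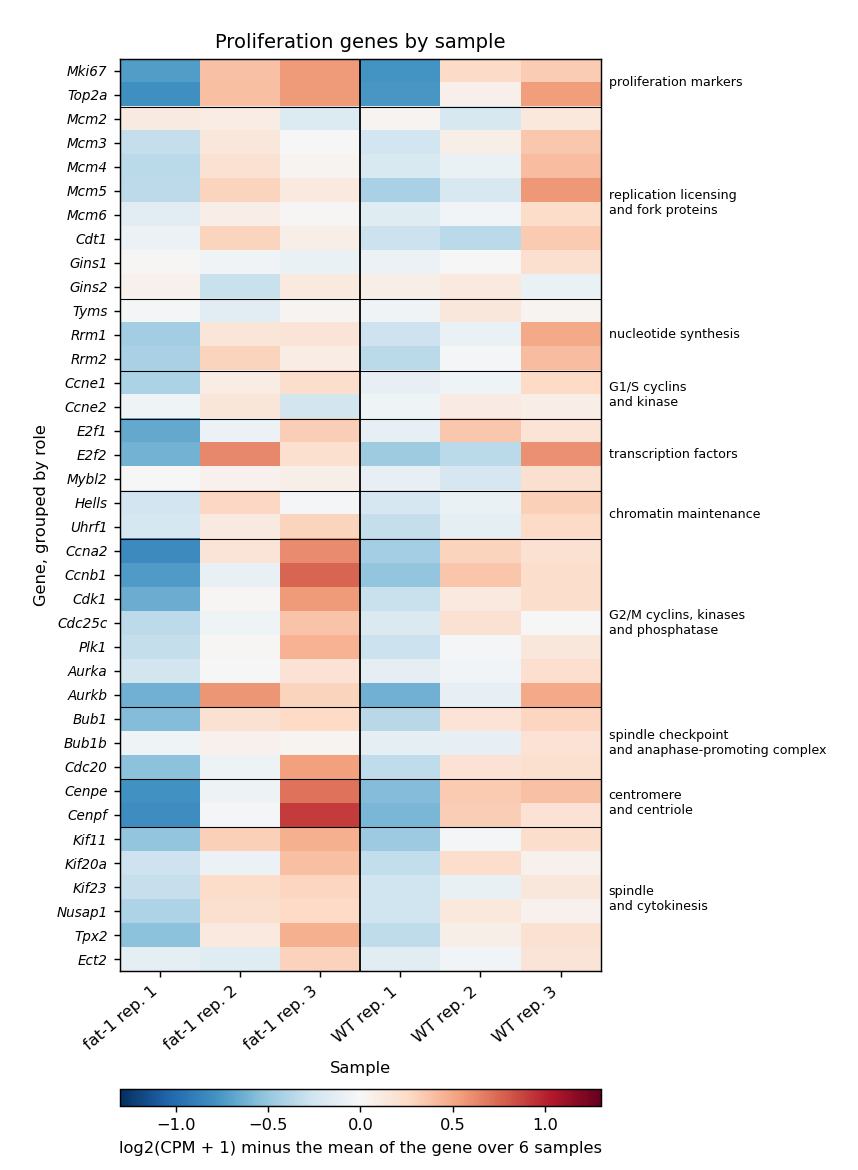
Log2(CPM + 1) of each of the 38 genes with their own measure (rows, grouped by role) in each sample (columns), as the difference from the mean of the gene over 6 samples (blue below, red above). Both samples numbered 1 are blue in most rows, and the darkest red lies in the mitotic genes of *fat-1* replicate 3.

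Over the 38 genes, the highest sample was a median of 2.0-fold above the lowest (from 1.28-fold for *Mcm2* to 5.50-fold for *Cenpf*). The same median was 1.72-fold over all tested loci and 1.54-fold over loci of the same range of mean CPM. The samples with the lowest and the next lowest value were *fat-1* replicate 1 and WT replicate 1 in 29 of the 38 genes. The same held for 18.9% of all tested loci and 21.4% of loci of the same range of mean CPM. Both samples were picked out after their values were seen. The median deviation of the 38 genes from their means, on the log2(CPM + 1) scale, was −0.35, 0.11 and 0.26 in *fat-1* replicates 1 to 3 and −0.27, −0.01 and 0.22 in WT replicates 1 to 3. Without both samples numbered 1, 33 of the 50 genes had higher and 17 lower values in *fat-1* mice, and 0 passed the adjusted or the unadjusted threshold.

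The mitotic and the replication genes differed in which samples were high. Among 20 genes of the mitotic roles, proliferation markers included, the median range was 2.65-fold and 14 had a range of at least 2-fold, while among 18 genes of the G1/S and replication roles the median was 1.59-fold and 5 reached it. *fat-1* replicate 3 was the highest sample in 16 of the 20 mitotic genes and in 1 of the 18 others. WT replicate 3 was the highest in 3 of the 20 and in 12 of the 18. Each of these counts rests on a single sample, and the same shares over all loci were not computed. The summed CPM of the mitotic genes was 32.5%, 48.2% and 66.3% of that of the replication licensing and fork genes in *fat-1* replicates 1 to 3 and 35.5%, 54.6% and 46.6% in WT replicates 1 to 3. The ranges of the genotypes overlapped. Genes with a CHR element and no E2F motif had a median range of 2.01-fold (n = 11). The median was 1.59-fold for those with an E2F motif and no CHR element (n = 6) and 2.06-fold for those with neither (n = 10). The 2 genes with both, *E2f2* and *Cdk1*, had a median of 3.2-fold.

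Cell type markers also differed across the samples, and their lists did not all follow the proliferation genes. Their sums are given over the rows with the symbols, since loci such as those of *Cd68* and *Cd79a* are mostly counts of other rows. The 6 B cell markers summed to 223, 565 and 548 CPM in *fat-1* and to 194, 255 and 588 CPM in WT samples, lowest in both samples numbered 1. The 6 fibroblast markers summed to 1518, 3878 and 5196 CPM in *fat-1* and to 3047, 5212 and 4406 CPM in WT samples. This sum was also lowest in both samples numbered 1, but the markers were mixed. Only 3 of the 6 were below their own mean in both of these samples, and 0 were above it in both. The 7 basal epithelial markers summed to 568, 152 and 285 CPM in *fat-1* and to 444, 251 and 145 CPM in WT samples, highest in both samples numbered 1. T cell markers summed to between 58.3 and 128 CPM, macrophage markers to between 42.2 and 70.1 CPM and endothelial markers to between 64.3 and 143 CPM. Each of these sums was also lowest in both samples numbered 1. For T cells the margin was small, with 69.5 CPM in *fat-1* replicate 1 and 71.2 CPM in WT replicate 2. Markers of germinal centre B cells summed to between 38.2 and 60.5 CPM and globins to between 52.3 and 150.1 CPM, and neither sum was lowest in both samples numbered 1. The 4 adipocyte markers summed to at most 1.31 CPM, and no marker was at 0 in every sample. None of the marker loci passed the adjusted or unadjusted threshold between genotypes, and the part of these cell types in the proliferation genes was not tested.

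**Figure D5:**
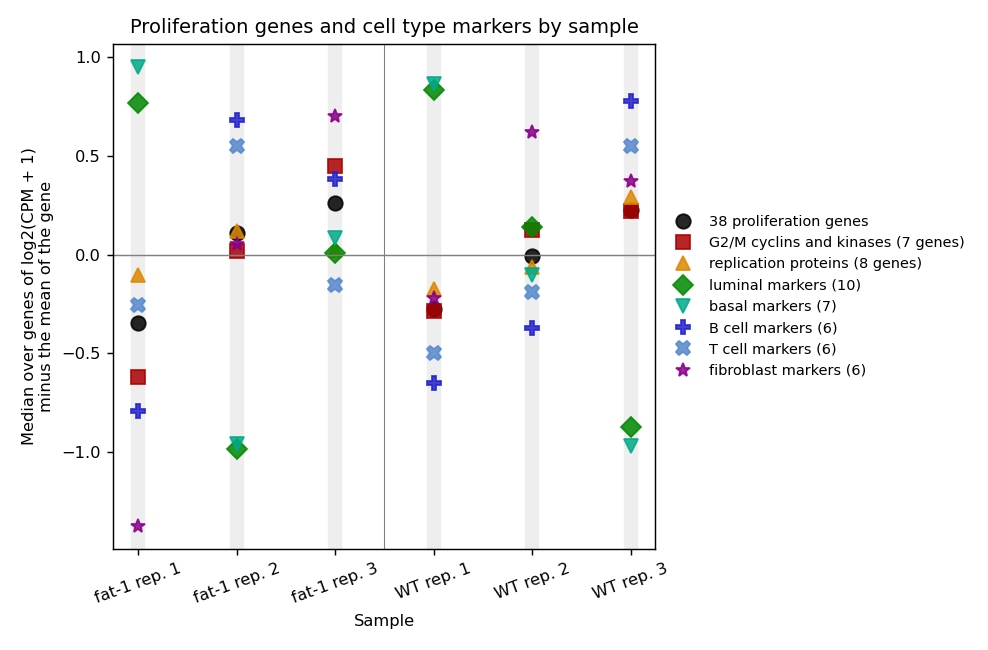
Median over genes of log2(CPM + 1) minus the mean of the gene (y axis) in each of the 6 samples (x axis), 1 symbol per list, for the 38 proliferation genes, the 7 G2/M cyclins, kinases and phosphatase, the 8 replication proteins and 5 lists of cell type markers, from locus sums. The proliferation genes and the markers of B cells, T cells and fibroblasts are below 0 in both samples numbered 1, where the epithelial markers are above 0.

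Levels were compared between genes as mean CPM per kilobase of exon. Over the 38 genes the highest were *Cdt1* at 10.9, *Mcm6* at 10.6 and *Mcm3* at 9.23, and the lowest were *Cdc25c*, the phosphatase that activates CDK1, at 0.149 and *Cenpf* at 0.184. *Mki67* had 1.77 and *Top2a* 1.67. Like *Gins2*, a few genes share exonic bases with a gene on the other strand, and their values are uncertain for the same reason. The share is 29.3% for the kinesin *Kif20a*, 17.4% for *Ccne2*, 12.7% for *Cdc25c* and 12.5% for *Ccna2*.

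Other genes of the cell cycle also had no call. Of 12 regulators of G1 phase, 14 cell cycle inhibitors, 36 other replication genes and 45 other mitosis genes, 0 passed the adjusted or unadjusted threshold. In *fat-1* mice, 3 G1 regulators, 9 inhibitors, 21 replication genes and 26 mitosis genes had higher values and the rest had lower values. The smallest p of each list belonged to the G1 kinase *Cdk4* (log2 fold change −0.09, SE 0.11), the CDK inhibitor locus *Cdkn2a* (−0.26, SE 0.24), the DNA polymerase subunit *Pola1* (−0.21, SE 0.14) and the CDK subunit *Cks1b* (−0.17, SE 0.11). Next were *E2f6* (−0.09, SE 0.12), *Cdkn1c* (−0.13, SE 0.18), *Gins4* (−0.14, SE 0.12) and *Cks2* (−0.22, SE 0.18). The symbol row held under 80% of the locus in 5 of the G1 regulators, 3 of the inhibitors, 8 of the replication genes and 7 of the mitosis genes, *E2f6*, *Cdkn1c*, *Cks1b* and *Cks2* among them. Over the other genes, the median range over the samples was 2.02-fold for the 38 mitosis genes and 1.39-fold for the 28 replication genes.

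The pattern of the proliferation genes over the 6 samples was compared with that of 10897 other loci with a symbol and a mean of at least 5 CPM. This minimum left out 27 of the 45 other mitosis genes, so the comparison does not rank them. The highest Pearson correlations of log2(CPM + 1) were those of the interferon-induced *Nmi* (r = 0.996), the innate immune adaptor *Myd88* (r = 0.996), the locus of the guanylate-binding proteins *Gbp6*, *Gbp10* and *Gbp11* (r = 0.995), *Ap1m1*, *Nfkbib*, *Il4ra*, *Rufy3*, *Fam207a*, *Tln1* and *Stx11* (r = 0.991). *Nmi* had 18.1, 35.9 and 39.9 CPM in *fat-1* and 20.7, 30.6 and 41.0 CPM in WT samples, lowest in both samples numbered 1. All points share the same 6 libraries, and 281 loci had a correlation of at least 0.95.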

How the data were processed

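The proliferation genes and all gene lists were chosen with earlier results of these data known. RNA-Seq of 6 pooled samples was used, and the labels gave genotype and number. The authors aligned reads with HISAT2 to GRCm38 and deposited whole-number StringTie counts that were not normalized. How coverage became counts, and whether strand was used, is not given in the sources used here.

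Rows sharing a locus number were added, which gave 53912 loci. Genotype was tested in R 4.3.3 with edgeR 4.0.16 (quasi-likelihood test, newer fit, filterByExpr, TMM, Benjamini-Hochberg, threshold 0.05), with DESeq2 1.42.0 as an alternative. Standard errors were derived from the fold change and the F statistic of the test. The lowest total was 204539059 counts, and the lowest count of a gene with its own measure was 75 (*Cdc25c*, *fat-1* replicate 1). Exon lengths are from GENCODE M21 and promoters from RefSeq. No pair of the 6 samples agreed within sampling noise.

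Genes were named by rule: the markers, the first gene and the highest and lowest fold change of each role, genes with an unadjusted p at or under 0.05, genes with mixed loci, extremes of level, the smallest p of other lists, and the 10 loci most like the mean. Other genes were named after their values were seen. Alternatives were size factors, filters, the older fit, a covariate of immune markers, the symbol with unnamed rows, a replicate block, and leaving out samples.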

Additional observations from a re-analysis of the deposited data

How the results depend on the processing

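No proliferation gene passed the adjusted threshold in any of 15 alternatives on locus sums or 14 on rows. DESeq2 called 8 loci and 93 rows. Without 1 sample at a time there were 0 to 1 loci and 0 to 2 rows called, and between 11 and 41 proliferation genes higher in *fat-1* mice by locus sums and between 10 and 39 by rows. Numbers did not pair all samples: over all loci, deviations of same-numbered samples had correlations of 0.80, −0.16 and 0.13. Over the loci of the proliferation genes, these were 0.92, −0.34 and 0.18. With the replicate block, 0 loci and 0 rows were called, with 376 loci and 784 rows at the unadjusted threshold, and 25 genes were higher. Without both samples numbered 1, chosen after seeing the data, 33 genes were higher by locus sums and 35 by rows. Loci at the unadjusted threshold numbered 579 without a filter and 616 with the immune marker covariate, and rows 1136 and 1077. An unadjusted p at or under 0.05 was reached on locus sums by *Tk1* with the covariate (0.25, SE 0.09), by *Cdt1*, *Tk1*, *Plk4* and *Birc5* without WT replicate 3, and by *Cdc6* when only symbol and unnamed rows were added (0.68, SE 0.16). The *Mcm7* row kept its direction in every alternative, but was over that threshold without *fat-1* replicate 1 or 2, WT replicate 3 or both samples numbered 1. The sign of the locus fold change turned, without any call, in 4 genes with the block, 6 with the covariate, 4 with symbol and unnamed rows, 10 without both samples numbered 1 and 9 to 18 without 1 sample, and in 0 under the other 5 alternatives. The cause was not tested. With 3 pools a genotype, a missing call does not show that there was no difference. The *Mcm7* row, with a log2 fold change of −1.03 (SE 0.33), was not called either.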
